A study of Mus musculus with 46 samples.

Results

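Mt1, Mt2 and Slc30a1 encode the metallothioneins MT1 and MT2 and the zinc exporter ZnT1, and their transcripts were followed here in mouse bone marrow-derived macrophages (BMDMs) given compounds that act on liver X receptors (LXRs) or estrogen receptors. They are 3 of the 24671 genes in the deposited count table, chosen by symbol. The choice was made with results in view, because Mt2 had been seen to be higher where ICI was added to 27HC. Values of 27HC and ICI + 27HC libraries are therefore given as a description, with no test on the members. All 3 genes had enough counts to be tested elsewhere.

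Metallothioneins are small, cysteine-rich proteins that bind zinc and copper in the cytosol and buffer the pool of free zinc. ZnT1, the product of Slc30a1, moves zinc out of the cell across the plasma membrane. In mouse cells the zinc-sensing factor MTF-1, encoded by Mtf1, binds metal response elements in the promoters of these genes when free zinc rises, and metallothionein genes are also known to respond to oxidants and glucocorticoids.

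Bulk RNA-seq libraries were made from polyadenylated RNA of BMDMs in 9 treatment groups, to examine how different LXR and estrogen receptor ligands act on these cells. Vehicle had 6 libraries and each other group had 5, which gave 46 in all. The single agents were an agonist of LXRs, GW3965, an antagonist of LXRs, GSK2033, the estrogen estradiol, labelled E2, ICI, the estrogen receptor antagonist fulvestrant, and 27HC, a hydroxylated cholesterol metabolite that binds both kinds of receptor. The combinations were ICI + 27HC, GSK2033 + 27HC, and GW3965 with a second compound, which the titles give as 27HC and the treatment labels as ICI, so that it is left unnamed below. All groups shared the cell type. Dose, exposure time, mouse strain and the age of the animals are not given in the sources used here, and neither is whether replicates came from separate animals or cultures, so p-values measure the spread between these libraries, which may be technical.

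Mt2 and Mt1 are neighbours on chromosome 8 of GRCm38. In the GENCODE annotation Mt2 (ENSMUSG00000031762) spans chr8:94172664-94173568 and Mt1 (ENSMUSG00000031765) spans chr8:94179082-94180327, both on the plus strand with 3 exons, and the 5513 bases between them hold 0 other annotated genes. Slc30a1 (ENSMUSG00000037434) spans chr1:191906767-191913247 on the plus strand, with 2 exons. Antisense genes overlap Mt2 (Gm45774) and Slc30a1 (1700034H15Rik). The library kit was stranded, but the strand setting of the counting is not given in the sources used here, so reads of those partners may not have been kept apart. Of the 31-base words in the reference transcripts, Mt1 shared 0 of 519 and Slc30a1 shared 0 of 5214 with other genes, while Mt2 shared 3 of 481 with Pip5k1a.

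The sequence just upstream of each gene is shown because metal response elements, the sites through which MTF-1 acts, lie there in metallothionein promoters. The sequences are from RefSeq on GRCm38.p6, plus strand, 5′ to 3′. They end before the first base annotated by RefSeq or GENCODE, whichever comes first. The RefSeq start minus the GENCODE start was -46 bases for Mt2, 7 for Mt1 and 14 for Slc30a1. The Mt2 sequence therefore stops short of the GENCODE start given above. They cover chr8:94172368-94172617 for Mt2, chr8:94178839-94179081 for Mt1 and chr1:191906531-191906766 for Slc30a1. Capitals mark matches to TGCACNC or TGCGCNC, the letters searched for the metal response element on both strands, so that a match on the minus strand reads as its reverse complement.
Mt2: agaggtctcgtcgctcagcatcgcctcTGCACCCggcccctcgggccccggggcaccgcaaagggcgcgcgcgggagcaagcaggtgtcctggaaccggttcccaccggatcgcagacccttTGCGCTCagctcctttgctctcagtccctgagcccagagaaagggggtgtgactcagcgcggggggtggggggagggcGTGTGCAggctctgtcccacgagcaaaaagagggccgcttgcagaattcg
Mt1: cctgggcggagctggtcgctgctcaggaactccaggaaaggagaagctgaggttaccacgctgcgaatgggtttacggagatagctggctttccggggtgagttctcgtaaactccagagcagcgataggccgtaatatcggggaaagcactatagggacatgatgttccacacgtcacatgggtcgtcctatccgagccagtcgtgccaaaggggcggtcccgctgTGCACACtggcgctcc
Slc30a1: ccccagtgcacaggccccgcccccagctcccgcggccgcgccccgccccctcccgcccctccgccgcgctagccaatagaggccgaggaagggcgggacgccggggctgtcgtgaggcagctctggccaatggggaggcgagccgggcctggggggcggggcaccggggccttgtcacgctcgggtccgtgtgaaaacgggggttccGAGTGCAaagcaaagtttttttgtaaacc
Mt2 held 3 matches, Mt1 held 1 and Slc30a1 held 1. Of 32851 mouse promoters searched over the 250 bases before the RefSeq start, 21.4% held at least 1 match and 1.26% held at least 3. A second motif, TGACNNNGC, the core letters of the antioxidant response element, was found once upstream of Mt2 (TGACTCAGC) and once upstream of Slc30a1 on the minus strand (GCCTTGTCA as read on the plus strand), and in 10.2% of the promoters. The 2 motifs did not overlap in these windows. With the 50 bases after the start included, metal response element matches numbered 4 at Mt2, 3 at Mt1 and 2 at Slc30a1. Over that span at least 2 matches were held by 7.11% of promoters, at least 3 by 1.97% and at least 4 by 0.517%. The counts thus depend on where the start is placed, and the start used in these cells was not tested.

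The total estimated count per library ran from 19354093 to 30921038. The 3 genes were covered by 749 to 3468 estimated counts for Mt1, 105 to 1098 for Mt2 and 440 to 986 for Slc30a1. All 8 macrophage markers were tested and their summed level was 19847.5 to 21615 CPM (estimated counts scaled to the size of the library) in Vehicle, 14194 to 14930 in ICI, 10825 to 11379 in GW3965 and 10153 to 10844 in ICI + 27HC. The 7 stromal cell markers, which include collagen genes, summed to 4274 to 5047 CPM in Vehicle, 3588 to 4232 in ICI, 3242 to 3881 in GW3965 and 2760 to 3156 in ICI + 27HC. The lists for neutrophils, lymphocytes, dendritic cells and erythroid cells summed to at most 3.23, 1.12, 2.08 and 0.392 CPM in any library, the mast cell and basophil list to at most 10.4 CPM, and the osteoclast list to 23.6 to 53.3 CPM. No marker was at 0 in the macrophage or stromal lists. Because RNA was measured in bulk, fewer cells of a type and less RNA per cell cannot be told apart.

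**Figure D1:**
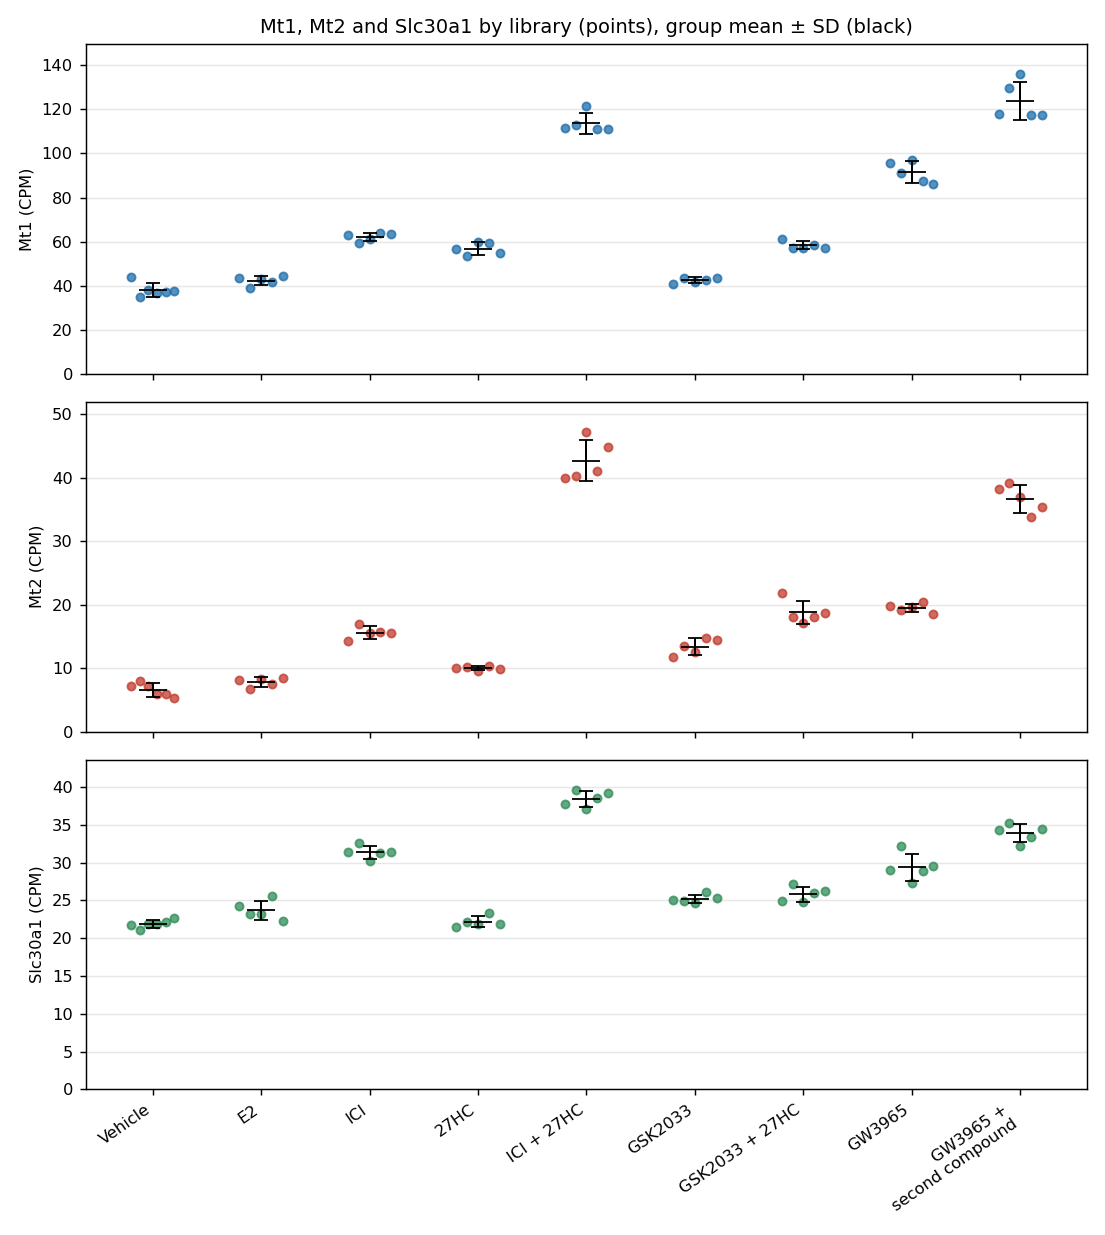
TMM-scaled CPM (vertical axis, starting at 0) of Mt1, Mt2 and Slc30a1 in each library (points) of the 9 groups, with the group mean ± SD in black. The means of Vehicle and E2 are the lowest for Mt1 and Mt2, and those of ICI + 27HC and GW3965 + second compound are the 2 highest for all 3 genes.

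The plot of the 3 genes by library shows levels in CPM after TMM scaling. Per length of transcript, Mt1 was the most abundant of the 3 in Vehicle at 69.4 ± 5.75 CPM per kilobase, followed by Mt2 at 12.8 and Slc30a1 at 4.18 (SD for Mt1, n = 6). In ICI + 27HC the same per-length levels were 207 for Mt1, 83.5 for Mt2 and 7.33 for Slc30a1. The order of the 3 genes was the same in both groups, with Mt2 closer to Mt1 in the combination. The lengths used were those of the full annotated transcripts, 549 bases for Mt1, 511 for Mt2 and 5244 for Slc30a1. No allowance was made for fragment length, so gaps between Slc30a1 and the 2 short transcripts are approximate.

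Mt1 was lowest in Vehicle, where the 6 libraries ran from 34.9 to 44.1 CPM with a median of 37.4. The other means, in ascending order, were those of E2 (42.3 ± 2.06 CPM, SD, n = 5), GSK2033 (42.5 ± 1.24), 27HC (56.8 ± 2.81), GSK2033 + 27HC (58.3 ± 1.82), ICI (62.2 ± 1.85), GW3965 (91.6 ± 4.87), ICI + 27HC (114 ± 4.61) and GW3965 + second compound (124 ± 8.65). Along that order, 3 steps separated neighbours whose libraries did not overlap, those from GSK2033 to 27HC, from ICI to GW3965 and from GW3965 to ICI + 27HC. The other 5 pairs of neighbours overlapped, among them the 2 highest groups.

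Mt2 was lowest in Vehicle as well, at 5.28 to 7.94 CPM with a median of 6.52. Its order differed from that of Mt1: the mean was 7.83 ± 0.723 CPM in E2, 9.99 ± 0.321 in 27HC, 13.4 ± 1.28 in GSK2033, 15.6 ± 0.978 in ICI, 18.8 ± 1.83 in GSK2033 + 27HC, 19.5 ± 0.659 in GW3965, 36.7 ± 2.18 in GW3965 + second compound and 42.7 ± 3.19 in ICI + 27HC (SD, n = 5). GSK2033 stood below 27HC for Mt1 and above it for Mt2. Libraries of neighbouring groups overlapped between Vehicle and E2, between GSK2033 and ICI, and between GSK2033 + 27HC and GW3965, and at no other step. The range of group means was 6.51-fold for Mt2 and 3.25-fold for Mt1.

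Slc30a1 varied least, with a 1.75-fold range of group means. Its 6 Vehicle libraries lay between 21.1 and 22.7 CPM, with a median of 21.9. The means followed as 22.2 ± 0.728 CPM in 27HC, 23.7 ± 1.26 in E2, 25.2 ± 0.551 in GSK2033, 25.8 ± 1.00 in GSK2033 + 27HC, 29.4 ± 1.77 in GW3965, 31.4 ± 0.853 in ICI, 33.9 ± 1.16 in GW3965 + second compound and 38.5 ± 1.05 in ICI + 27HC (SD, n = 5). The first 5 groups in that order overlapped from each to the next. The 2 steps without overlap were those from GSK2033 + 27HC to GW3965 and from GW3965 + second compound to ICI + 27HC.

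The LXR agonist GW3965 raised all 3 genes. The metal-binding protein genes were the more changed: Mt1 stood at 95.8, 91.2, 97.2, 87.7 and 86.0 CPM in the 5 GW3965 libraries and Mt2 at 19.8, 19.2, 19.6, 20.4 and 18.6 CPM. Every one of these libraries was above every Vehicle library. Mt1 was 2.4-fold higher than in Vehicle (log2 fold change 1.26 ± 0.045, SE, adjusted p = 2.93e-27, edgeR's quasi-likelihood fit, Benjamini-Hochberg, 13838 genes tested). Mt2 was 2.97-fold higher (1.57 ± 0.077, adjusted p = 3.85e-22 in the same edgeR fit), the 80th largest increase among the genes tested. The exporter gene Slc30a1 was at 29.0, 32.2, 27.3, 28.9 and 29.6 CPM, again without overlap, and was 1.34-fold higher (0.42 ± 0.037, edgeR adjusted p = 2.24e-13). These 3 of 3 increases compare with 23.1% of all genes tested that were called higher in GW3965. Of the stromal markers 5 of 7 fell and 0 rose in this comparison, and of the macrophage markers 6 of 8 fell and 2 rose, beside 21.1% of all genes tested called lower. Their part in the result was not tested.

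The estrogen receptor antagonist ICI also raised all 3 genes, where 13.9% of genes tested were called higher. Mt2 was at 14.3, 17.0, 15.5, 15.7 and 15.5 CPM in the ICI libraries and Mt1 at 62.9, 59.5, 61.3, 63.9 and 63.6 CPM. Slc30a1 was at 31.4, 32.6, 30.2, 31.3 and 31.4 CPM. None of these values reached down into the Vehicle range. By edgeR, Mt2 was 2.37-fold higher than in Vehicle (log2 fold change 1.25 ± 0.078, SE, adjusted p = 1.55e-17) and ranked 67th from the top of the 13838 genes by fold change. Mt1 was 1.63-fold higher (0.71 ± 0.046, adjusted p = 5.18e-17, edgeR). Slc30a1 was 1.43-fold higher (0.52 ± 0.037, adjusted p = 1.36e-15, edgeR). In this comparison 6 of 7 stromal markers fell and 0 rose, and 5 of 8 macrophage markers fell and 3 rose, beside 12.5% of all genes called lower, and their part in the result was not tested.

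The LXR antagonist GSK2033 changed the 2 metallothionein genes to different extents. Mt2 was at 11.7, 13.5, 12.5, 14.8 and 14.4 CPM, all above the highest Vehicle library, and was 2.04-fold higher than in Vehicle (log2 fold change 1.03 ± 0.079, SE, edgeR adjusted p = 8.66e-15). Mt1 was at 40.9, 43.6, 41.5, 42.7 and 43.7 CPM, which lay within the Vehicle range because 1 Vehicle library stood at 44.1 CPM, above the rest. Its 1.11-fold increase passed the edgeR test (0.16 ± 0.047, adjusted p = 0.00730). Slc30a1 was at 25.1, 24.9, 24.6, 26.1 and 25.3 CPM, without overlap with Vehicle, and was 1.15-fold higher (0.20 ± 0.038, edgeR adjusted p = 2.40e-05). All 3 were thus called higher, as were 18.4% of genes tested. Of the stromal markers 4 of 7 fell and 0 rose, and 6 of 8 macrophage markers fell and 1 rose, beside 17.9% of all genes called lower, and their part in the result was not tested.

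E2 was the one single agent tested for which 0 of the 3 genes was called. Mt1 was at 43.4, 39.1, 42.9, 41.6 and 44.5 CPM, Mt2 at 8.20, 6.75, 8.28, 7.43 and 8.48 CPM and Slc30a1 at 24.2, 23.3, 23.2, 25.6 and 22.2 CPM. Libraries of the 2 groups overlapped for each gene. DESeq2 also called 0 of the 3, and all 3 had an unadjusted p under 0.05 by both tools. The log2 fold changes were 0.15 ± 0.047 for Mt1 (95% interval 0.05 to 0.24, edgeR adjusted p = 0.0598), 0.25 ± 0.084 for Mt2 (0.08 to 0.42, adjusted p = 0.0768) and 0.11 ± 0.038 for Slc30a1 (0.04 to 0.19, adjusted p = 0.0808). In this comparison 4.70% of all genes tested were called in either direction. Of the markers, 1 of 7 stromal genes fell and 0 rose, and 1 of 8 macrophage genes fell and 3 rose, and their part in the values was not tested. Leaving out single libraries changed the calls: Mt1 passed without Vehicle replicate 1 (0.20, edgeR adjusted p = 0.00322) or without E2 replicate 2 (0.17, adjusted p = 0.0312). Mt2 passed without Vehicle replicate 2 (0.31, edgeR adjusted p = 0.0167) or without E2 replicate 2 (0.30, adjusted p = 0.0361), and Slc30a1 passed without E2 replicate 5 (0.13, adjusted p = 0.0462). Slc30a1 also passed with all libraries kept when the replicate number was a block in the edgeR fit (0.12, adjusted p = 0.0383). The GW3965, ICI, GSK2033 and E2 comparisons share the same Vehicle libraries.

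The agonist and the antagonist of LXR were also compared directly, in libraries that do not involve Vehicle. All 3 genes were higher in GW3965 than in GSK2033 and no libraries overlapped, beside 23.8% of genes called higher. The difference was 2.15-fold for Mt1 (log2 fold change 1.11 ± 0.047, SE, edgeR adjusted p = 2.05e-24), 1.46-fold for Mt2 (0.54 ± 0.076, adjusted p = 4.57e-08) and 1.17-fold for Slc30a1 (0.22 ± 0.039, adjusted p = 4.28e-06). Whether these folds differ between the genes was not tested. In this comparison 5 of 7 stromal markers were lower and 1 higher, and 6 of 8 macrophage markers were lower and 1 higher, beside 22.6% of all genes called lower, and their part in the result was not tested.

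**Figure D2:**
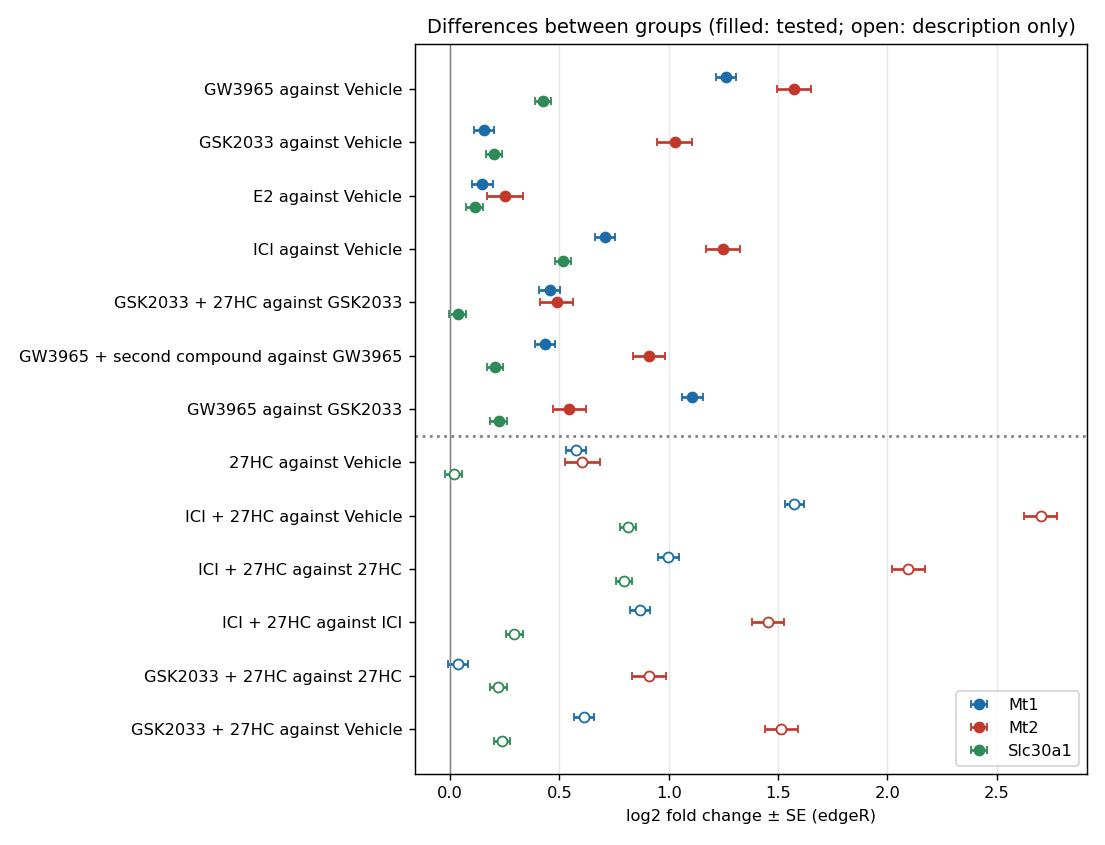
Log2 fold changes ± SE from the edgeR fit (horizontal axis) of Mt1, Mt2 and Slc30a1 in each comparison (vertical axis), with filled points where the genes were tested and open points where values are a description. Mt2 lies farthest to the right in ICI + 27HC against Vehicle, at 2.70. In E2 against Vehicle, Mt1 lies at 0.15, Mt2 at 0.25 and Slc30a1 at 0.11.

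Adding 27HC to GSK2033 raised both metallothionein genes and left Slc30a1 uncalled. Mt1 was at 61.3, 57.3, 57.3, 58.5 and 56.9 CPM in GSK2033 + 27HC, all above the GSK2033 libraries, a 1.37-fold increase (log2 fold change 0.46 ± 0.048, SE, edgeR adjusted p = 7.90e-11). Mt2 was at 21.9, 18.1, 17.1, 18.0 and 18.8 CPM, also without overlap, a 1.40-fold increase (0.49 ± 0.075, edgeR adjusted p = 7.65e-07). Slc30a1 was at 25.0, 27.2, 24.7, 26.0 and 26.2 CPM and overlapped GSK2033, with a log2 difference of 0.04 (95% interval -0.04 to 0.11, edgeR adjusted p = 0.527). The 2 of 3 genes called higher compare with 17.1% of all genes tested. Of the markers, 3 of 7 stromal genes fell and 0 rose, and 4 of 8 macrophage genes fell and 1 rose, beside 18.8% of all genes called lower, and their part in the result was not tested.

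The second compound raised all 3 genes further when given with GW3965, where 7.93% of genes tested were called higher. Mt2 reached 38.2, 39.2, 36.9, 33.7 and 35.4 CPM and was 1.88-fold higher than with GW3965 alone (log2 fold change 0.91 ± 0.072, SE, edgeR adjusted p = 8.42e-14). Mt1 reached 118, 130, 136, 118 and 117 CPM, a 1.35-fold increase (0.44 ± 0.045, edgeR adjusted p = 2.60e-10). Slc30a1 was at 34.3, 35.3, 32.2, 33.4 and 34.4 CPM, a 1.15-fold increase (0.21 ± 0.038, edgeR adjusted p = 6.09e-05). No library of the combination overlapped GW3965 alone for Mt1 or Mt2, and for Slc30a1 the lowest combination library lay just above the highest GW3965 library, both at 32.2 CPM when rounded. The summed stromal markers were at 2720 to 3299 CPM in the combination and 3242 to 3881 CPM in GW3965 alone. Of these markers 6 of 7 fell and 0 rose, and of the macrophage markers 4 of 8 fell and 2 rose, beside 9.56% of all genes called lower, and their part in the result was not tested.

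The comparison by which the genes were chosen is given as a description. In 27HC alone Mt2 was at 10.1, 10.1, 9.51, 10.4 and 9.86 CPM, Mt1 at 56.6, 53.3, 59.8, 59.4 and 55.0 CPM and Slc30a1 at 21.5, 22.1, 21.9, 23.4 and 21.8 CPM. In ICI + 27HC Mt2 was at 40.0, 40.3, 47.2, 41.1 and 44.8 CPM, Mt1 at 112, 113, 122, 111 and 111 CPM and Slc30a1 at 37.8, 39.7, 37.1, 38.6 and 39.2 CPM. Every ICI + 27HC library lay above every 27HC library for each of the 3 genes, in a comparison in which 16.8% of all genes tested were called higher. The log2 differences were 2.09 ± 0.076 for Mt2, 1.00 ± 0.046 for Mt1 and 0.80 ± 0.039 for Slc30a1 (SE, edgeR fit), or 4.27-fold, 2.00-fold and 1.74-fold. Between 27HC and ICI + 27HC the summed macrophage markers went from 14058 to 15355 CPM to 10153 to 10844 CPM, and the stromal markers from 3371 to 3815 CPM to 2760 to 3156 CPM, and their part in the result was not tested.

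Against Vehicle, 27HC alone stood 1.49-fold higher for Mt1 (log2 difference 0.58 ± 0.046, SE) and 1.52-fold higher for Mt2 (0.61 ± 0.081), with no overlap of libraries, beside 20.3% of genes called higher. Slc30a1 differed by 0.02 ± 0.038 and its libraries overlapped. ICI + 27HC stood 6.50-fold above Vehicle for Mt2, 2.98-fold for Mt1 and 1.75-fold for Slc30a1, where 26.6% of all genes tested were called higher. The folds of ICI alone and 27HC alone against Vehicle multiply to 3.61 for Mt2, 2.43 for Mt1 and 1.45 for Slc30a1. For each gene the observed fold of the combination was thus above that product, by 0.85 for Mt2, 0.29 for Mt1 and 0.28 for Slc30a1 on the log2 scale, and these gaps were not tested because the choice of genes used the ICI + 27HC libraries. For GSK2033 with 27HC the products were 3.10 for Mt2, 1.66 for Mt1 and 1.16 for Slc30a1, beside observed folds of 2.86, 1.53 and 1.18 against Vehicle.

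**Figure D3:**
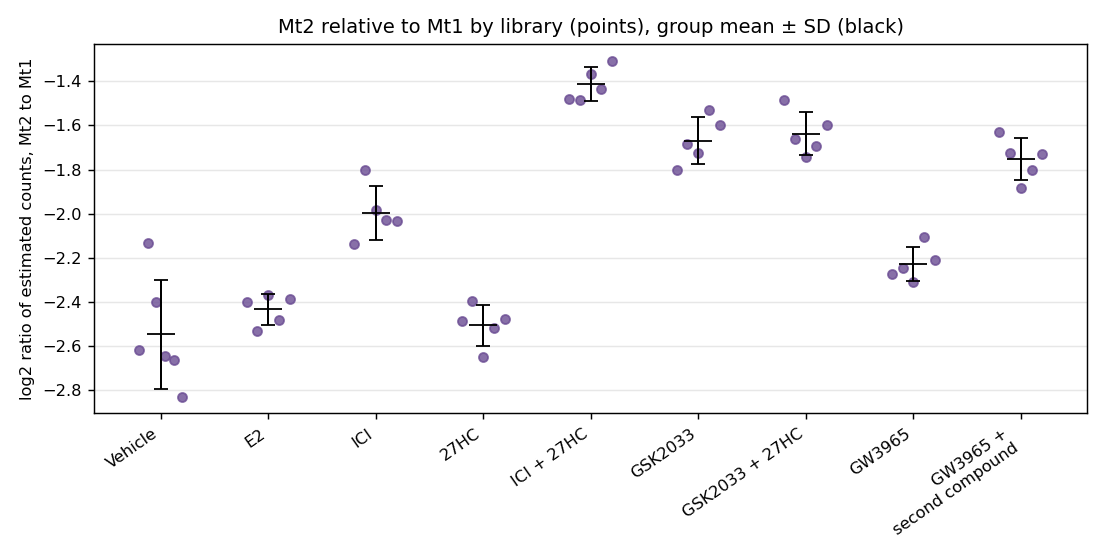
Log2 ratio of Mt2 to Mt1 estimated counts (vertical axis) in each library (points), with the group mean ± SD in black. The ratio is lowest in Vehicle, 27HC and E2 and highest in ICI + 27HC, and the 5 GSK2033 libraries sit above the 6 Vehicle libraries.

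The balance between the metallothionein transcripts also depended on the ligand. Vehicle held 17.1 Mt2 counts per 100 Mt1 counts, with libraries from 14.1 to 22.8. GSK2033 held 31.5, with libraries from 28.6 to 34.6, and ICI held 25.0, with libraries from 22.7 to 28.6. In these measures GSK2033 did not overlap Vehicle, and the lowest ICI library fell just under the highest Vehicle library. The log2 ratio of Mt2 to Mt1 was higher than in Vehicle by 0.88 ± 0.11 in GSK2033 (SE, two-sided exact permutation test, p = 0.00433, adjusted over the 4 single agents p = 0.0173) and by 0.55 ± 0.11 in ICI (exact permutation p = 0.00866, adjusted p = 0.0173). The smallest p that 6 libraries against 5 allow is 0.00433. GW3965 held 21.3 Mt2 counts per 100 Mt1 counts, 0.32 ± 0.11 above Vehicle on the log2 scale (exact permutation p = 0.0303, adjusted p = 0.0404), a call that was lost when any 1 of 10 of the 11 libraries was left out, every one but Vehicle replicate 2 (exact permutation, adjusted p up to 0.0889). E2 held 18.5 and its log2 ratio was 0.11 higher (exact permutation p = 0.346, adjusted p = 0.346), which passed only without Vehicle replicate 2 (0.20, adjusted p = 0.0317 by the same exact test). As a description, the count per 100 Mt1 counts was 17.6 in 27HC, 29.7 in GW3965 + second compound, 32.2 in GSK2033 + 27HC and 37.5 in ICI + 27HC.

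The zinc sensor gene Mtf1 covered a narrow range of levels. Its group means ran from 24.7 CPM in GW3965 + second compound to 29.8 CPM in GW3965, with 27.1 ± 2.87 CPM in Vehicle (SD, n = 6) and 27.2 ± 2.09 CPM in ICI + 27HC (n = 5). Mtf1 was called in 1 of the 7 comparisons tested, lower by 0.27 ± 0.089 on the log2 scale with the second compound than with GW3965 alone (edgeR adjusted p = 0.0291), where libraries overlapped and all 3 members rose. In ICI against Vehicle its log2 fold change was -0.01 ± 0.085 (edgeR adjusted p = 0.959). The other metallothionein genes, Mt3 and Mt4, were listed at no more than 0.100 and 0.0357 CPM in any library and were not tested.

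**Figure D4:**
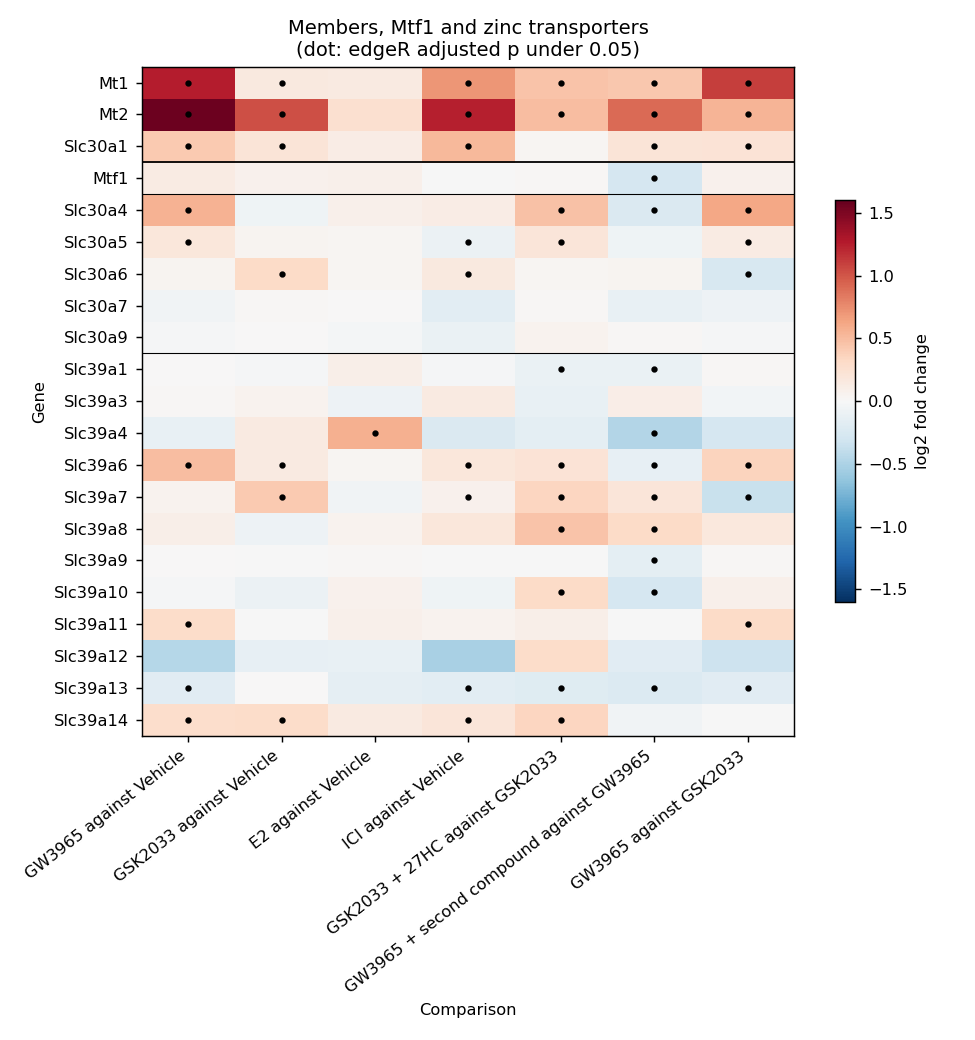
Log2 fold changes (colour scale, red higher and blue lower) of the 3 members, Mtf1 and the tested zinc transporters (rows) in the 7 tested comparisons (columns), with a dot where the edgeR adjusted p was under 0.05. Over the whole map the strongest colours lie in the Mt1 and Mt2 rows, and the other zinc exporter and importer rows are mixed in direction. This does not hold in every column. In E2 Slc39a4 lies at 0.56, beside 0.25 for Mt2 and 0.15 for Mt1. In GSK2033 against Vehicle Slc39a7 lies at 0.41, beside 0.16 for Mt1.

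The remaining zinc transporters did not move as a block, as the colour map of zinc genes shows. Of 9 other genes of the ZnT family, which lower cytosolic zinc, 5 were tested. In ICI against Vehicle 1 was called higher and 1 lower: Slc30a6, a Golgi zinc transporter, rose 1.11-fold (edgeR adjusted p = 0.0300), and Slc30a5 fell by 0.10 on the log2 scale (adjusted p = 0.0107). In GW3965 2 rose and 0 fell, led by Slc30a4 at 26.6 ± 1.50 CPM beside 18.2 ± 1.31 in Vehicle (1.47-fold, edgeR adjusted p = 4.52e-14). In GSK2033 1 rose, Slc30a6, and in E2 0 were called, with 0 under an unadjusted p of 0.05 by edgeR or DESeq2. Slc30a4 went up with 27HC on top of GSK2033 (1.38-fold, edgeR adjusted p = 6.74e-11), where Slc30a1 was not called, and fell by 0.23 on the log2 scale with the second compound on top of GW3965 (adjusted p = 0.000365), where Slc30a1 rose. Over all genes tested the shares called higher and lower were 13.9% and 12.5% in ICI, 23.1% and 21.1% in GW3965 and 18.4% and 17.9% in GSK2033, and the ZnT counts, of 5 genes tested, lie near these shares.

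Of the ZIP family, which brings zinc into the cytosol, 12 of 14 listed genes were tested. GW3965 raised 3 and lowered 1, with Slc39a6 going from 78.1 ± 2.60 to 110 ± 2.55 CPM (1.41-fold, edgeR adjusted p = 9.16e-18). ICI raised 3 and lowered 1, Slc39a6 1.14-fold among them (edgeR adjusted p = 1.27e-05). GSK2033 raised 3 and lowered 0, led by Slc39a7, a zinc transporter of the endoplasmic reticulum, at 237 ± 7.27 CPM beside 178 ± 4.28 in Vehicle (1.33-fold, edgeR adjusted p = 2.27e-17). E2 raised 1, Slc39a4, from 18.5 ± 2.79 to 27.4 ± 4.03 CPM (1.48-fold, edgeR adjusted p = 0.00133). The second compound on top of GW3965 raised 2 and lowered 6, and 27HC on top of GSK2033 raised 5 and lowered 2. The median log2 fold change of the tested ZIP genes was 0.01 in GW3965, 0.02 in ICI and 0.00 in GSK2033, beside medians of 0.00, 0.01 and -0.01 over all genes tested. The ZIP counts in GW3965, ICI and GSK2033 lie near the shares of all genes called, given above for the ZnT family. With E2 4.70% of all genes were called in either direction, with the second compound 7.93% were called higher and 9.56% lower, and with 27HC on top of GSK2033 17.1% were called higher and 18.8% lower.

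Across the 46 libraries, log2 CPM of Mt1 and Mt2 had a Pearson r of 0.91, Mt2 and Slc30a1 one of 0.90 and Mt1 and Slc30a1 one of 0.85, and over the 9 group means these were 0.92, 0.92 and 0.87. Libraries of a group share its treatment, so they are not independent points, and no p is given. All correlations given here also used the libraries of the comparison by which the members were chosen. No r without those libraries is given, so their share in these values was not tested. Across the libraries Mtf1 had r of -0.18 with Mt1, -0.13 with Mt2 and -0.10 with Slc30a1, and over the 9 group means -0.35, -0.27 and -0.28.

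Among the 11480 tested genes that averaged 1 CPM or more, the 5 whose log2 CPM followed Mt2 most closely over the 46 libraries were Nup62, a nuclear pore protein gene (r = 0.98), Mthfd2, a mitochondrial folate enzyme gene (0.97), Cars, the cysteinyl-tRNA synthetase gene (0.95), Asns, the asparagine synthetase gene (0.95), and Slc7a1, a cationic amino acid transporter gene (0.95). That ranking also used the 27HC and ICI + 27HC libraries, by which the members were chosen. Mthfd2 went from 42.8 ± 2.32 CPM in Vehicle to 154 ± 4.42 CPM in ICI + 27HC, and Nup62 from 56.5 ± 2.75 to 99.3 ± 5.81 CPM. In ICI and GW3965 the means were 81.5 and 92.3 CPM for Mthfd2 and 72.8 and 79.2 CPM for Nup62. For Mt1 the 5 were Mindy1 (r = 0.95), a deubiquitinase gene, Atf3 (0.95), a stress-induced transcription factor gene, Ttc7b (0.94), Arl11 (0.94) and Tom1 (0.93). Atf3 went from 104 ± 8.53 CPM in Vehicle to 341 ± 19.8 CPM in ICI + 27HC, with means of 211 CPM in ICI and 274 CPM in GW3965. For Slc30a1 they were Soat1, which encodes a cholesterol-esterifying enzyme (r = 0.89), Nup62 (0.88), Nars, the asparaginyl-tRNA synthetase gene (0.88), Psap, which encodes the saposin precursor (0.87), and Esyt1 (0.87). Nup62 was on the lists of both Mt2 and Slc30a1, and no gene was on all 3.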

How the data were processed

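The deposited table holds estimated counts per gene, which the authors made with kallisto 0.44.0 on GRCm38, per the submitters' processing notes. Symbols and positions are from GENCODE M21 (24243 of 24671 identifiers matched). Estimated counts were rounded to whole numbers. With edgeR 4.0.16, filterByExpr kept 13838 genes, TMM scaled the libraries, and a robust quasi-likelihood model with 1 mean per group was fitted to all 46 libraries (37 residual degrees of freedom), with p-values adjusted by Benjamini-Hochberg across those genes and calls made under 0.05. The code of the fit was run on simulated counts in which some genes were changed in ICI only, a simpler setting than these data. Levels are TMM-scaled CPM. Ratios of Mt2 to Mt1 had 0.5 added to both counts and were tested by exact permutation with scipy 1.17.1. No 2 libraries of a group were identical (95 pairs).

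The members, the gene lists and the comparisons were chosen with earlier results of these data known. Genes named are the members, Mtf1, up to 4 genes of a list with the smallest p in a comparison, and the 5 genes most like each member by Pearson r. Slc30a4 and Slc39a6 are followed across comparisons within that rule. The alternatives tried were other scalings, low-count filters, DESeq2 1.42.0, a fit of only the groups compared, a replicate block and leaving out each library.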

Additional observations from a re-analysis of the deposited data

Results flagged for a closer look

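Of 27 groups of values looked at (3 genes in 9 treatment groups), 2 held a library that stood apart from the rest of its group by Dixon's criterion, and chance flags about 1 in 20 groups. Both are for Mt1. The highest Vehicle library, replicate 1, was at 44.1 CPM, where the other Vehicle libraries ran from 34.9 to 38.2 CPM. Without it the log2 fold change of Mt1 was 1.31 in GW3965, 0.75 in ICI, 0.20 in GSK2033 and 0.20 in E2 against Vehicle. The highest ICI + 27HC library, replicate 3, was at 122 CPM, where the others ran from 111 to 113 CPM. Without it Mt1 stood 0.97 above 27HC on the log2 scale, beside 1.00 with it.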

How the results depend on the processing

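Main results were recomputed under other scalings, filters, DESeq2, fits of only the groups compared and a replicate block, which gave 200 values. These include the number of genes called in each comparison, which has no direction and no side of the threshold. In E2 against Vehicle that number ran from 485 to 843, beside 650. Among the values with a test, all but 1 kept their direction and their side of the threshold. The exception was Slc30a1 in E2 against Vehicle, which passed with the replicate block (log2 fold change 0.12, edgeR adjusted p = 0.0383). Same-numbered libraries had correlations of their deviations from -0.076 to 0.084. Of 5 pairs, those best matched with their own number ran from 0 in GW3965 against Vehicle to 3 in ICI + 27HC against 27HC. In E2 against Vehicle it was 1, with a mean correlation of 0.012 for same numbers and -0.0024 for others. These small values did not settle whether replicate numbers pair the libraries. The replicate block gave 6124 genes called in GW3965 against Vehicle, 3629 in ICI, 5006 in GSK2033 and 843 in E2, beside 6123, 3654, 5025 and 650 without it. Of 340 values with 1 library left out, 10 lost a call and 6 gained one. The other 324 include numbers of genes called, which have no side of the threshold to keep. With 1 library left out, E2 against Vehicle ran from 0.12 to 0.20 for Mt1, 0.20 to 0.31 for Mt2 and 0.083 to 0.13 for Slc30a1, and the log2 ratio of Mt2 to Mt1 from 0.26 to 0.40 in GW3965 and 0.057 to 0.20 in E2. Other scalings moved the median of all genes by at most 0.06 on the log2 scale. Mt2 rested on the fewest counts, 105 in its lowest library.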

Other observations

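Other metal and stress genes were counted in the same edgeR fit (adjusted p under 0.05, Benjamini-Hochberg). Of 12 targets of the oxidant-responsive factor NRF2, GW3965 raised 11 and lowered 1 (median log2 fold change 1.08), GSK2033 raised 10 and lowered 1 (0.30), ICI raised 7 and lowered 1 (0.25) and E2 raised 7 and lowered 0 (0.17). Over all genes tested these medians were within 0.01 of 0, and the shares called higher and lower were 23.1% and 21.1% in GW3965, 18.4% and 17.9% in GSK2033, and 13.9% and 12.5% in ICI, with 4.70% called in either direction in E2. The counts of the lists that follow are to be set beside the same shares, and several lie near them. Hmox1, the heme oxygenase gene, which is also on the iron list, went from 674 ± 30.9 CPM in Vehicle to 941 ± 22.9 CPM in ICI (1.40-fold, edgeR adjusted p = 5.43e-21) and rose 2.81-fold in GW3965 (adjusted p = 1.77e-40). Slc7a11, the cystine transporter gene, was the 1 NRF2 target lowered in GW3965 and the 1 lowered in ICI. It was at 21.2 ± 1.03 CPM in GW3965 and 32.7 ± 1.73 CPM in ICI, beside 39.7 ± 5.13 CPM in Vehicle. In GSK2033 it rose 2.99-fold (edgeR adjusted p = 2.68e-21), and it was among the genes raised in E2.

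Of 10 heat shock genes, GW3965 raised 9 and lowered 0, ICI raised 4 and lowered 1, GSK2033 raised 3 and lowered 2, and E2 raised 0 and lowered 0 (1 had an unadjusted p under 0.05, by edgeR and by DESeq2, which also called 0). Of 12 glucocorticoid-responsive genes the calls went both ways, with 4 higher and 4 lower in GW3965, 2 and 5 in ICI, 3 and 4 in GSK2033 and 1 and 0 in E2. Of 13 iron handling genes 8 rose and 1 fell in GW3965, 7 and 1 in ICI, 6 and 4 in GSK2033 and 4 and 0 in E2, and Slc40a1, the iron exporter gene, rose 2.00-fold in GW3965 and fell by 0.68 on the log2 scale in GSK2033. Of 9 copper handling genes tested, 2 rose and 4 fell in GW3965, 2 and 3 in ICI, 4 and 0 in GSK2033 and 0 and 1 in E2. Slc31a2, a copper transporter gene, fell by 1.34 on the log2 scale in GW3965 (edgeR adjusted p = 2.08e-30) and rose 1.61-fold in GSK2033 (adjusted p = 4.71e-20).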
